A study of Mus musculus with 125 samples.

Results

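The neural progenitors of the embryonic brain preparations were 53 cell barcodes among the 29483 of 3 single-cell RNA libraries, 34 at embryonic day 9.5 (E9.5), 12 at E12.5 and 7 at E16.5. The members were selected on the counts themselves, as barcodes that held at least 200 genes, a mitochondrial share of at most 10%, a transcript molecule (unique molecular identifier, UMI) of Sox2, UMI of at least 3 of the 7 genes Sox2, Pax6, Hes5, Fabp7, Sox1, Sox3 and Nes, and no UMI of Cdh5, Pecam1 or Tyrobp, which mark endothelial cells and microglia. The members made up 0.344% of the 9897 barcodes that passed the first 2 limits at E9.5 (exact binomial 95% interval 0.238 to 0.480%), 0.145% of 8248 at E12.5 (0.0752 to 0.254%) and 0.177% of 3964 at E16.5 (0.0710 to 0.364%). These and all later intervals cover counting error only. Each age was a single library with no replicate, so no difference between ages was tested and no p-value is given.

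The study as a whole is about the endothelium of mouse organs, the inner lining of blood vessels, from embryo to adult. For the single-cell libraries, brains of E9.5, E12.5 and E16.5 embryos were dissected and dissociated with collagenase, and cells that bound beads against CD31, a surface protein of endothelial cells, were kept and sequenced with a droplet kit that reads the 3′ ends of transcripts. The progenitors are therefore cells, or droplets with the RNA of cells, that came through an enrichment for another cell type, and their number says nothing of their share in the brain. Strain, genotype and sex of the embryos are not given in the sources used here, and neither is the number pooled per library.

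Neural progenitors line the ventricles of the neural tube and divide to give first neurons and later glia. They start as neuroepithelial cells, which proliferate and carry regional identity set by transcription factors along the body axis, and turn into radial glia, which express Fabp7. Notch signalling between neighbours keeps part of them undifferentiated through the repressors Hes1 and Hes5, while proneural factors such as Neurog2 commit cells to neurons. Progenitors also release signals to the vessels that grow into the neural tube.

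The promoters of Hes5 and Fabp7 are shown because these genes helped choose the members and had peaks of open chromatin over this sequence in bulk E12 brain. Both are the 250 bases before the gene's start on the plus strand, from RefSeq on GRCm38.p6, Hes5 at chr4:154960673-154960922 and Fabp7 at chr10:57784673-57784922. Capitals mark TGGGAA, the core of the sequence bound by Rbpj, the DNA-binding partner of Notch, or its reverse complement TTCCCA.
Hes5: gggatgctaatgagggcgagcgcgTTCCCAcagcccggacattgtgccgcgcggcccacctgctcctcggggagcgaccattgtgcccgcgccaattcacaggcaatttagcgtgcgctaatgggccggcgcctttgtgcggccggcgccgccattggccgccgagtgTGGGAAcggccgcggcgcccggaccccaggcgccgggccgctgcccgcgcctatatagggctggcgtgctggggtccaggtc
Fabp7: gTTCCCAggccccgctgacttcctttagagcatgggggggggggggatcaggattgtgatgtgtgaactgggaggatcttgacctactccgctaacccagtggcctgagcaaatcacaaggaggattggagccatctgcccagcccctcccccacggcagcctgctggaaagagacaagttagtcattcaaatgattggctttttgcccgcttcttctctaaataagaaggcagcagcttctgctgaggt
The Hes5 window held 2 matches, 1 on each strand, and the Fabp7 window held 1. Of 21263 RefSeq promoter windows of this length, 20.9% held at least 1 match and 2.71% held 2 or more, so a match is a description of the letters and not of binding. No match lay in the windows of Sox2, Nes or Nrarp, which says only that these letters are not there.

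The libraries differed in ways that touch every comparison of ages. At E9.5, 7279 of 17176 barcodes exceeded the mitochondrial limit, against 62 of 8310 at E12.5 and 8 of 3997 at E16.5, and the members' median mitochondrial share was 5.90, 3.31 and 2.40%. Members held a median of 5731.5 UMI at E9.5 (range 1130 to 25587), 5307.5 at E12.5 (4281 to 27944) and 5931 at E16.5 (3986 to 7285). A list of 8 genes known to respond to stress and dissociation, such as Fos and Jun, summed to 85.8, 546 and 1632 CPM in the members from E9.5 to E16.5 and to 302, 668 and 3433 in an endothelial reference from the same libraries, so it moved with age in both, and its part in the results was not tested. At E12.5, 3 barcodes of at least 20000 UMI carried 60.7% of all UMI of the members. The E16.5 matrix was read without a gene table of its own, in the row order that the other 4 libraries share. Its gene levels correlated with those of E12.5 at r = 0.972 across all genes of the table in that order and at 0.309 when shifted by 1 row, and its file name gives another day than its label, which was kept. The E12.5 and E16.5 libraries shared 50 barcode sequences and E9.5 shared 1 to 31 with each other library. Among shared sequences, 1 member was shared between E9.5 and P8 and 1 between E12.5 and E16.5.

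An endothelial reference was drawn from each library to give the level of each gene in the cells that the beads enrich. It held 4964, 5509 and 3650 barcodes with at least 3 of Cdh5, Pecam1, Kdr, Cldn5, Esam and Egfl7 and none of Sox2 or Tyrobp. Its median depth was 7119.5 UMI at E9.5, 10116 at E12.5 and 8971.5 at E16.5, above that of the members at each age.

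The 7 genes that chose the members are given as a description only. Sox2, the transcription factor of neural stem cells, lay in every member by the rule, at 1 to 9 UMI per barcode at E9.5, 1 to 7 at E12.5 and 1 to 6 at E16.5. Hes5, the Notch-dependent repressor, lay in 24 of 34 members at E9.5, 7 of 12 at E12.5 and 5 of 7 at E16.5, against 1.23, 2.14 and 2.05% of the endothelial reference. Its highest count in a barcode was 3, 11 and 16 UMI. Pax6, which patterns the dorsal forebrain and the ventral neural tube, lay in 13, 5 and 3 members. Sox1 and Sox3, the closest relatives of Sox2, lay in 7 and 11 members at E9.5, 1 and 2 at E12.5, and 2 and 0 at E16.5.

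Fabp7 differed widely between the libraries. This lipid carrier of radial glia lay in 11 of 34 members at E9.5 with at most 2 UMI each, in 10 of 12 at E12.5 with up to 87, and in 6 of 7 at E16.5 with up to 138. Summed over members it stood at 64.4 CPM (UMI of the gene per mega-UMI of the members) at E9.5, 2937 at E12.5 and 4243 at E16.5. The reference had 0.525, 11.8 and 10.0 CPM, so it too was higher at the later ages. Since Fabp7 helped choose the members, its levels are no finding on age. In E16.5, 138 of its 169 UMI came from 1 barcode, whereas at E12.5 Fabp7 had 33 UMI or more in 5 barcodes. Thinned to 2000 UMI, which leaves out 2 shallower members at E9.5, the expected share of members with Fabp7 was 16.7, 65.3 and 71.0%. Nes, an intermediate filament, was no marker against endothelium here, since 53.7 to 62.3% of the reference held it.

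At E9.5, 68 barcodes stood just outside the limit of 3 genes, with exactly 2 of the 7. A further 21 stood just inside with 3, and 13 had 4 or more. At least 3 epithelial genes lay in 20, 5 and 0 of them. The 3 groups held a median of 2, 3 and 3 of the 15 progenitor genes outside the rule. At E12.5 these groups held 7, 4 and 8 barcodes, and at E16.5 2, 3 and 4. The requirement of no Cdh5, Pecam1 or Tyrobp removed 8 further barcodes at E9.5, 25 at E12.5 and 6 at E16.5. Of the 8 removed at E9.5, 6 held a single UMI of these 3 genes, and the 8 held a median of 4 UMI of 11 other endothelial genes. The 25 removed at E12.5 held 0 to 321 such UMI with a median of 13, and all 25 held at least 3 of 15 progenitor genes that the rule did not use. The 6 removed at E16.5 held 83 to 387, against 1 to 6 in the members.

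Genes that the rule did not use were then read to check the label. Of 15 further progenitor genes, at least 3 lay in 20 of 34 members at E9.5, 11 of 12 at E12.5 and 6 of 7 at E16.5, so 37 of 53 met this standard and 14 of the 16 that did not were from E9.5. In the endothelial reference 24.6, 64.0 and 84.4% of barcodes did, so the standard does not separate members from endothelium at the later ages, and Vim, Notch1, Hes1, Prom1 and Cdh2 were among the genes found there. The list summed to 1146, 3376 and 2887 CPM in the members and to 2406, 2337 and 2426 in the reference, so at E9.5 it was lower in the members. Other genes of the list were rare in the reference. Rfx4, a transcription factor of the neural tube, lay in 7, 4 and 2 members and in 0.342, 0.0182 and 0.0274% of the reference. Msi1, an RNA-binding protein of neural stem cells, lay in 11, 7 and 4 members and in at most 1.83% of the reference. Slc1a3, the glutamate transporter of radial glia, lay in 2 of 34 members at E9.5, 6 of 12 at E12.5 and 4 of 7 at E16.5.

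The levels of the same list were compared with the reference among genes for which at least 10 UMI would be seen over the members and an equally deep sample of the reference. At E9.5, 4 of the 7 progenitor genes read were at least 2-fold higher in the members and 1 was lower, beside 8.57% higher and 11.5% lower of 5124 genes. At E12.5, 10 of 14 were higher and 0 lower, beside 14.3% and 13.1% of 3833 genes. At E16.5, 2 of 4 were higher and 1 lower, beside 28.7% and 19.5% of 1447 genes. The 11 endothelial genes left out of the rule were lower in the members, but 4 of them, Kdr, Cldn5, Esam and Egfl7, had chosen the reference, so their direction is no finding. The other 7 summed to 236, 116 and 75.3 CPM in the members and to 2511, 3446 and 4299 in the reference, and of those with enough UMI to compare, 7 of 7, 7 of 7 and 4 of 4 were at least 2-fold lower. Members had to lack Cdh5 and Pecam1, and the reference had to hold endothelial genes. A lower level of these 7 is thus tied to the choice of both groups and does not check the label. At E16.5 the 7 had 3 UMI in all members together. All 11 still summed to 511, 273 and 577 CPM in the members, against 4564, 7799 and 14923 in the reference, with 0 to 20, 0 to 6 and 1 to 6 UMI per member. Cldn5, the tight junction protein of brain endothelium, lay in 12, 6 and 7 members with at most 5 UMI. The 4 pericyte genes had no UMI in any member. Of 5 immune genes, Csf1r, Ptprc and Cx3cr1 had none, and the list had 1, 4 and 1 UMI in 1, 4 and 1 members, at 4.29, 33.1 and 25.1 CPM against 13.2, 20.7 and 4.81 in the reference.

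Some members carried genes of other tissues. At E9.5, 5 members held at least 3 of 6 epithelial genes. Epcam, an epithelial adhesion protein, reached 10 UMI and Krt18, a keratin, 22 UMI in the deepest of them, which also held 3 neural crest genes. At E12.5, 1 member held 3 epithelial genes, 3 held 3 of 6 neural crest genes each, Sox10 among them, and 1 held 8 of 9 mesenchymal genes. That last barcode had 47 UMI of Col1a1, the main collagen of connective tissue, and 17 of Lum, with 1 UMI of Sox2. In all, 10 of 53 members held at least 3 genes of epithelium, crest or mesenchyme, 5 at E9.5, 5 at E12.5 and 0 at E16.5. At least 3 of the 11 endothelial genes lay in 14 members, 8 at E9.5, 4 at E12.5 and 2 at E16.5, with 8 of the 11 in 2 E9.5 barcodes, at 20 and 16 UMI. Of the 53, 32 met neither standard. The other 21 are members by the rule but also carry the genes of another tissue. Hbb-y, an embryonic haemoglobin gene of red cells, lay in 34 of 34, 12 of 12 and 0 of 7 members and in 99.7, 99.7 and 12.4% of the reference. At E9.5, 360 of its 688 UMI lay in 1 barcode, which held 673 of the 1165 UMI of 9 erythroid genes over the members, beside 3 UMI of Sox3, 2 of Sox1, 2 of Lhx2 and 2 of Six3. The part of red cell RNA in the results was not tested.

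**Figure D1:**
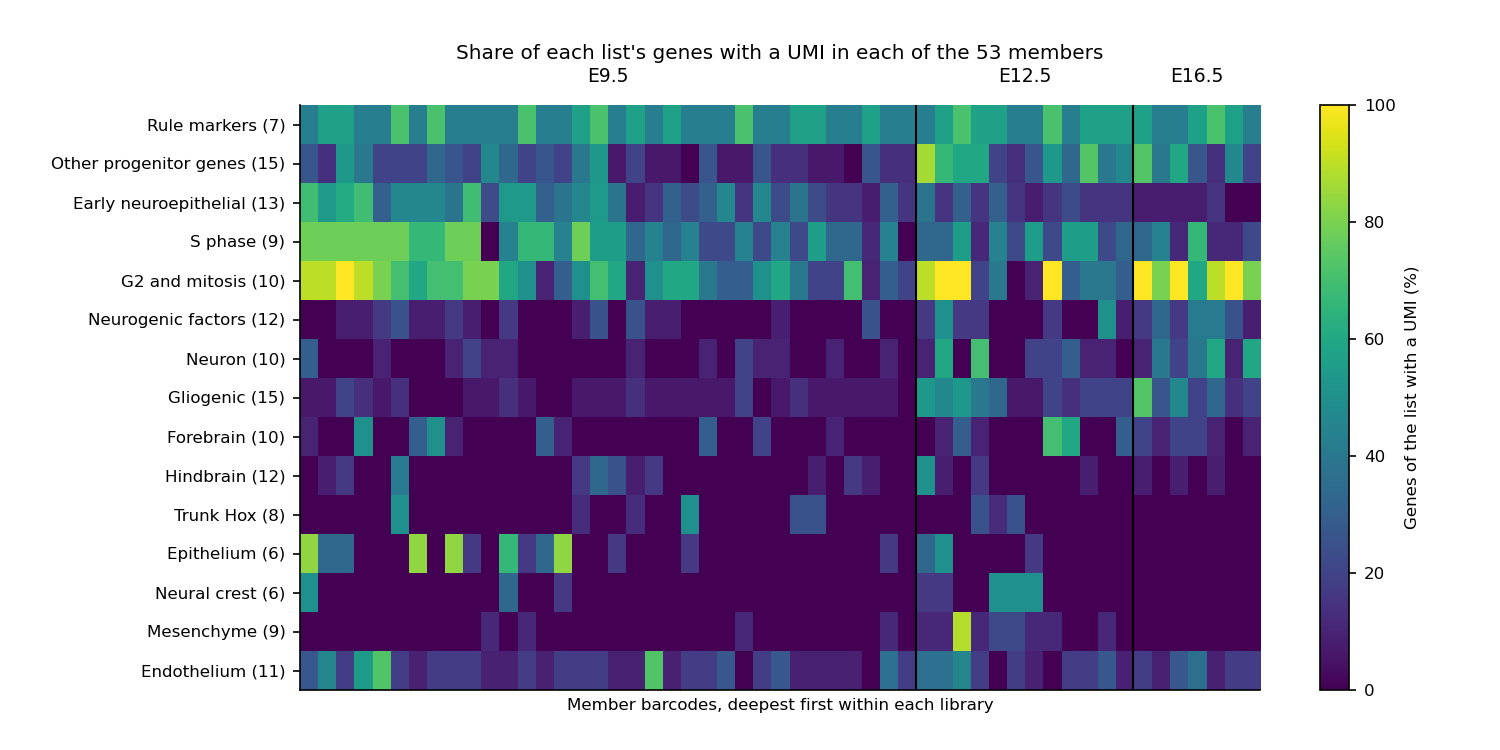
Share of each list's genes with a UMI (colour, %) in each of the 53 members (columns, deepest first within each library), with the number of genes in brackets; black lines divide the libraries. E9.5 members hold a median of 5 of the 13 early neuroepithelial genes (range 1 to 9), the 7 E16.5 members hold 6 to 10 of the 10 G2 and mitosis genes, and the epithelial, crest and mesenchymal rows show the 10 members with genes of other tissues.

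At E9.5 the members held genes of the early neural tube, and the reference held some of them too. Of 13 such genes, 12 had enough UMI to compare, and 5 were at least 2-fold higher than in the reference and 0 lower, beside 8.57% higher and 11.5% lower of all genes. Lin28a, an RNA-binding protein that blocks let-7 maturation, lay in 11 of 34 members with 20 UMI and in none of the 12 or 7 later members. The reference had it in 13.3% at E9.5 and in no barcode later, the same pattern. Lin28b lay in 9, 0 and 0 members and in 18.3, 5.19 and 0.986% of the reference. Crabp1 and Crabp2, which bind retinoic acid, lay in 23 and 24 of 34 members, and 19 held both, against 12.4 and 4.90% of the reference. At E12.5 they lay in 2 and 7 of 12 members, and at E16.5 in none of 7. Igdcc3, a membrane protein of the early neural tube, lay in 16 members at E9.5 with up to 10 UMI and in none later, against 4.69% of the E9.5 reference. Thinned to 2000 UMI, the expected share of members with Crabp1 was 45.3, 3.75 and 0%, and with Igdcc3 25.8, 0 and 0%.

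The list of 13 early neuroepithelial genes summed to 1811 CPM at E9.5 (exact Poisson interval 1642 to 1992), 472 at E12.5 (357 to 611) and 176 at E16.5 (70.7 to 362). The E12.5 level was 0.260 times that of E9.5, and 0.391 times without the barcodes of at least 20000 UMI. The endothelial reference had 1014, 248 and 91.3 CPM, so the list was also lower with age outside the progenitors. Hmga2, a chromatin protein of fetal stem cells, shows this best. It lay in 23, 6 and 0 members and in 85.4, 31.6 and 2.90% of the reference. Igf2bp1, an RNA-binding protein of fetal tissue, lay in 19, 4 and 1 members, and in 63.9, 48.1 and 18.1% of the reference.

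Forebrain, midbrain and ventral genes were more frequent in E9.5 members than in the reference, and hindbrain and trunk Hox genes were not. At least 1 forebrain gene lay in 10 of 34 members (29.4%), a midbrain gene in 6 (17.6%) and a ventral gene in 14 (41.2%), against 2.84, 1.99 and 11.2% of the reference. A hindbrain gene lay in 11 members (32.4%) and a trunk Hox gene in 6 (17.6%), against 36.7 and 23.8% of the deeper reference, so these 2 counts do not show a neural position. Some of the 10 members with a forebrain gene also held at least 3 epithelial genes, so that count alone does not show a neural position either. In 9 members no gene of the forebrain, midbrain, hindbrain or trunk Hox lists was seen. No E9.5 member held forebrain and hindbrain genes together. Shh, the signal of the floor plate, and Foxa2, its activator there, lay in 4 and 5 members, and all 4 with Shh also held Foxa2. The counts of Shh in these 4 barcodes were 3, 3, 2 and 1 UMI, against 0.342% of the reference with any. Spon1, a floor plate protein outside the named lists and chosen after its values were seen, lay in 7 members, with 28 of its 42 UMI in the Shh-positive barcode with the most Foxa2.

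Other regional genes at E9.5 were seen in few barcodes each. Six3, of the anterior neural plate, lay in 5 members, as did Otx2, of forebrain and midbrain, and both shared 1 barcode. The highest counts of Six3 and of Otx2, 5 UMI each, lay in 2 different barcodes that each held 5 epithelial genes. Hoxb8 and Hoxb9, of the spinal cord, lay in 3 and 4 members and together in 1, where they had 4 and 6 UMI. Both are also present in the reference, Hoxb8 in 13% and Hoxb9 in 5.18%, so a single UMI is within what endothelial barcodes show. Nkx6-1 and Nkx6-2, of the ventral neural tube, lay in 4 and 6 members and in at most 0.161% of the reference. Aldh1a3, a retinoic acid enzyme also chosen after its values were seen, lay in 3 members, all of which held epithelial genes, with 13 UMI in the deepest.

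**Figure D2:**
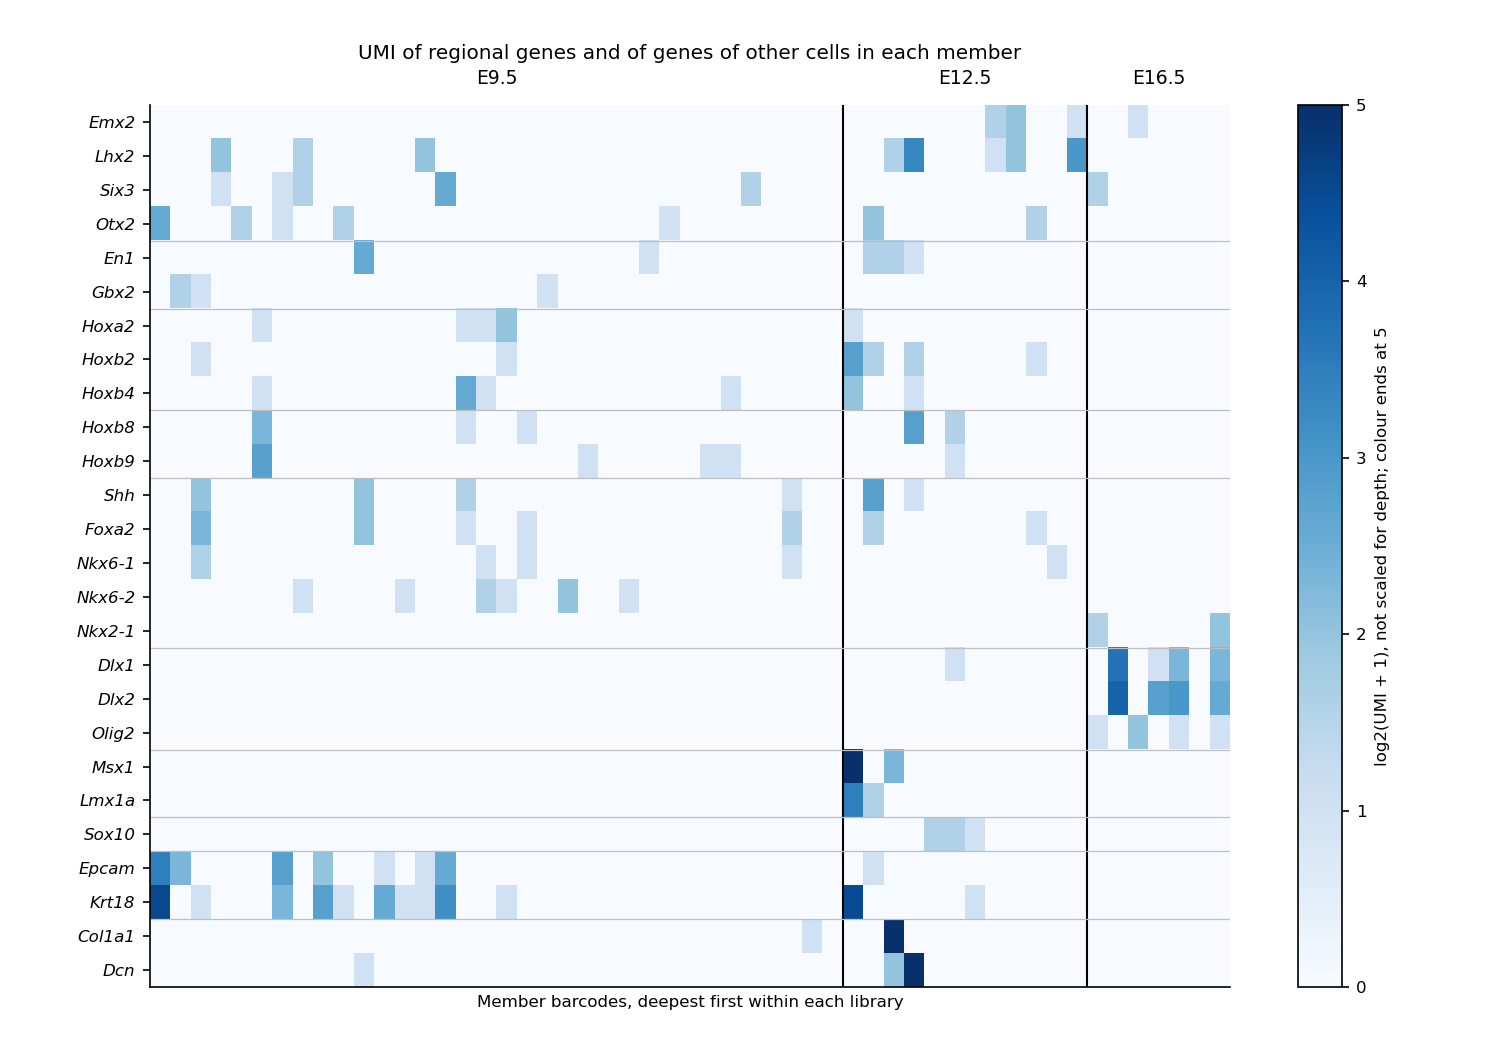
UMI of regional genes and of genes of other tissues (rows) in each member (columns, deepest first within each library), as log2(UMI + 1) not scaled for depth, with the colour ending at 5. Shh and Foxa2 share 4 barcodes at E9.5, Lhx2 and Emx2 share 3 at E12.5, and Dlx1 and Dlx2 share 4 of the 7 barcodes at E16.5.

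From E9.5 to E12.5, 1098 genes had at least 50 UMI over both sums of members. Of these, 139 (12.7%) were at least 2-fold higher in CPM at E12.5 and 151 (13.8%) at least 2-fold lower. Many of the largest ratios rested on 1 barcode. Msx1, a roof plate and crest factor, had 109 UMI against 0, at least 70.0-fold higher, with 105 UMI in the deepest barcode. Igfbpl1, of newborn neurons, had 86 UMI against 1, a ratio of 166 (29.0 to 6624), with 62 UMI in the same barcode. Tubb3, the neuronal tubulin, had 45 UMI against 5, with 40 in 1 barcode. Lgals1, a lectin of mesenchyme and nerve, had 117 against 37, with 90.6% in 1 barcode.

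Other genes were higher over several E12.5 members. Mfap2, a protein of extracellular microfibrils, lay in 12 of 12 members against 9 of 34 and was 8.87-fold higher (4.41 to 19.7). Igfbp2, which binds insulin-like growth factors, lay in 10 of 12 members and was 13.1-fold higher (9.23 to 19.0), with 55.4% of its UMI in 1 barcode. The reference moved the same way, from 19.2 to 169 CPM for Mfap2 and from 48.4 to 191 for Igfbp2. Nfia and Nfib, factors that prepare radial glia for gliogenesis, lay in 1 and 1 of 34 members at E9.5, in 8 and 9 of 12 at E12.5 and in 6 and 6 of 7 at E16.5. All 8 Nfia members at E12.5 and all 6 at E16.5 also held Nfib. In the reference Nfia lay in 7.47, 34.3 and 58.7% and Nfib in 33.6, 61.4 and 70.8%, so both were more frequent with age there too. At 2000 UMI the members' expected shares were 0.836, 30.0 and 49.8% for Nfia and 0.869, 35.5 and 60.4% for Nfib.

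The genes that were lower at E12.5 included those of early identity and of cell division. Crabp1 was 7.43-fold lower, from 86 to 6 UMI. Nasp, a histone chaperone, was 4.86-fold lower, Rcc2, of the mitotic spindle, 4.82-fold, Hmmr, a spindle protein, 3.56-fold and Mcm7, of the replication helicase, 2.70-fold. The reference was lower as well, from 23.4 to 1.72 CPM for Crabp1 and from 413 to 157 for Nasp. Of the 3 early neuroepithelial genes with enough UMI, 2 were at least 2-fold lower and 0 higher, and of 6 such G2 and mitosis genes, 3 were lower and 0 higher, beside 13.8% lower and 12.7% higher of all 1098 genes.

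The 12 members at E12.5 were a mixed set. The deepest barcode, of 27944 UMI, held 105 UMI of Msx1, 10 of Lmx1a, the roof plate factor, and 6 of Hoxb2, of the hindbrain, beside 21 of Krt18. The next, of 23375 UMI, held 7 UMI of Sox2, 17 of Nes, 6 of Shh and 37 of Slit2, an axon repellent of the floor plate. The third, of 22023 UMI, was the barcode with 8 mesenchymal genes. The fourth, of 8086 UMI, held 40 UMI of Tubb3 beside 70 of Fabp7, 9 of Lhx2, 6 of Hoxb8 and 37 of Dcn, a proteoglycan of connective tissue. Lhx2 was its only gene of the forebrain list, beside 2 hindbrain and 2 trunk Hox genes, so its region is not settled. The next 3 were those with Sox10, and they too held 7 to 87 UMI of Fabp7, which peripheral glia also express.

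The last 5 barcodes at E12.5, of 4281 to 5086 UMI, held no more than 1 gene of epithelium, crest or mesenchyme each. Lhx2, a selector of the cortex and eye, lay in 3 of them, and each of these also held Emx2, a cortical patterning gene, at 1 to 3 UMI. Hes5 lay in 4 of the 5, at 1 to 11 UMI, and Pax6 in 4 of the 5, at 1 to 3 UMI. Over the 12 members, forebrain genes lay in 6, midbrain genes in 3, hindbrain genes in 4 and trunk Hox genes in 3. The reference had 2.49, 0.309, 18.9 and 1.36%. Forebrain and hindbrain genes lay together in 2 members. At E16.5 forebrain genes lay in 6 of 7 members and hindbrain genes in 3, against 1.42 and 19.2% of that reference, and 3 members held both.

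From E12.5 to E16.5, a comparison that shares the E12.5 members with the previous one, 521 genes had at least 50 UMI. Of these, 53 (10.2%) were at least 2-fold higher at E16.5 and 71 (13.6%) at least 2-fold lower. The median ratio of genes was -0.26 on the log2 scale. With that median taken out of every ratio, 73 genes were higher and 49 lower, so which direction held more genes changed with the scaling. Without the barcodes of at least 20000 UMI it was 31 higher and 21 lower.

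Genes of G2 and mitosis were highest at E16.5. Of the 5 G2 and mitosis genes with enough UMI, all 5 were at least 2-fold higher than at E12.5, beside 10.2% of all 521 genes. Top2a, which untangles chromosomes, lay in 7 of 7 members at 5 to 13 UMI, against 15.3% of the reference. Ccnb1, the mitotic cyclin, lay in 7 of 7 at 3 to 16 UMI, against 9.56%. Ube2c, which drives exit from mitosis, lay in 7 of 7 at 4 to 17 UMI, against 13.7%. So each of the 7 barcodes held these 3 genes although few endothelial barcodes did. At 2000 UMI the members' expected share with Top2a was 54.5, 38.9 and 94.8% from E9.5 to E16.5.

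The list of 10 G2 and mitosis genes summed to 2759 CPM at E9.5, 1779 at E12.5 and 7883 at E16.5 (7035 to 8805), while the reference had 2015, 1450 and 433. The members held a median of 6 of the 10 genes at E9.5, 4 at E12.5 and 9 at E16.5, with ranges of 1 to 10, 0 to 10 and 6 to 10. The E16.5 level was 4.43 times that of E12.5, and 6.74 times when the members with genes of epithelium, crest or mesenchyme were left out. S phase genes stood at 1043, 678 and 979 CPM (intervals 916 to 1183, 540 to 842 and 696 to 1338), against 913, 749 and 307 in the reference. As sums, both lists were lowest at E12.5 and above the reference at E16.5. By the median per barcode, S phase stood at 1029, 930 and 488 CPM, lowest at E16.5, and by the mean at 1065, 944 and 959. Ccnd2, a cyclin of the first gap phase, lay in 7 of 7 members at E16.5 and was 4.25-fold higher than at E12.5 (2.97 to 6.12). Cdkn1c, a cyclin-dependent kinase inhibitor and the other of 2 first gap phase genes with enough UMI, was 27.0-fold lower, from 82 UMI to 1, with 35 of the 82 in 1 barcode. No cell cycle phase was called per barcode.

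**Figure D3:**
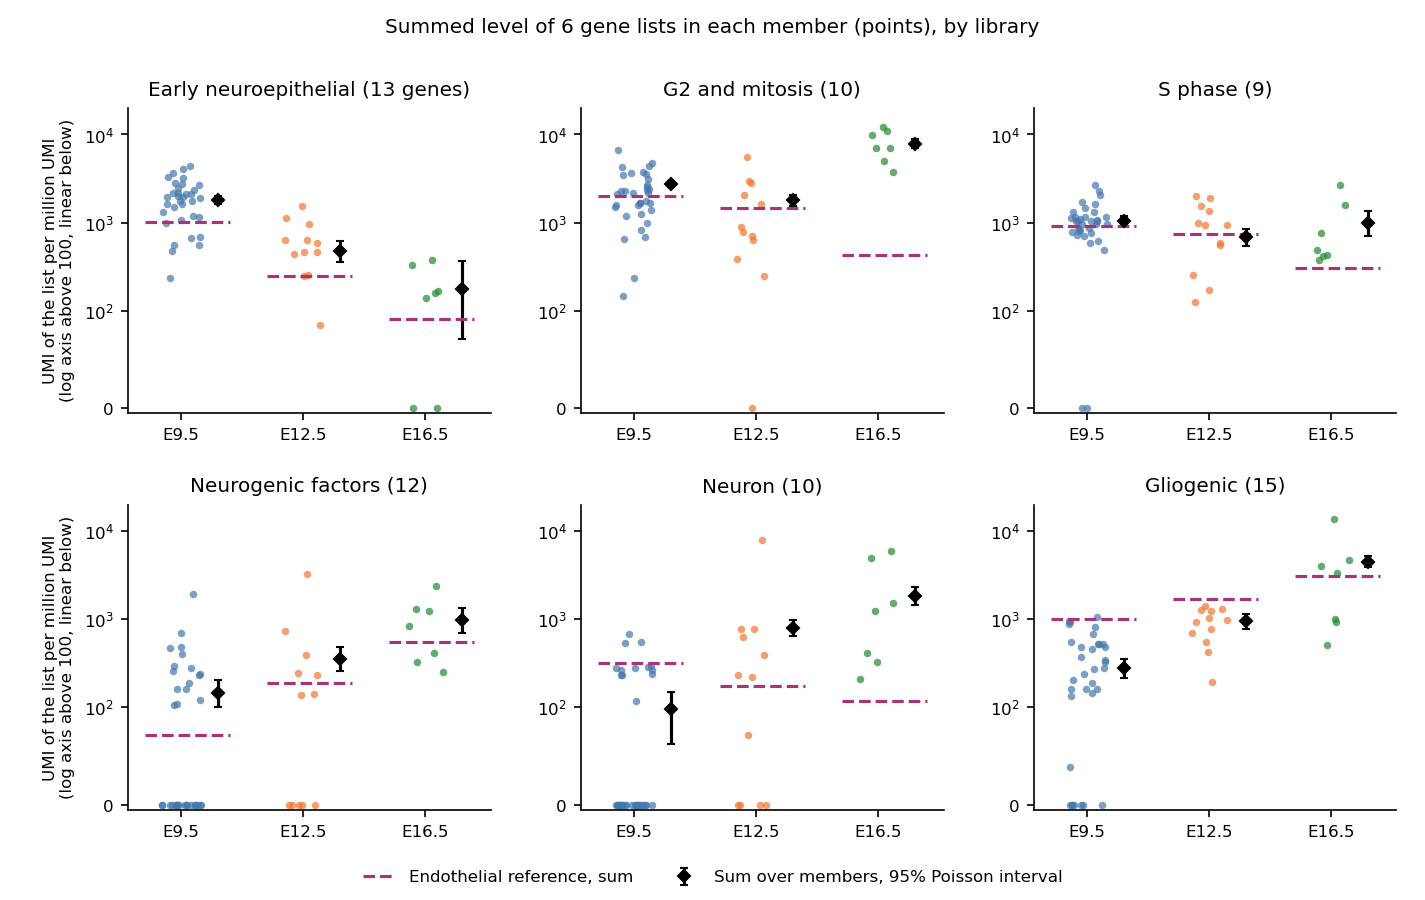
Summed CPM of 6 gene lists in each member (coloured points), in all members of a library (black diamonds with exact 95% Poisson intervals) and in the endothelial reference (dashed lines), on an axis that is logarithmic above 100 and linear below. The G2 and mitosis list stood at 7883 CPM in the E16.5 members and 433 in the reference, while the early neuroepithelial list stood at 1811, 472 and 176 CPM with age.

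A group of 4 of the 7 members at E16.5 carried Dlx genes, which are known from the ventral forebrain. Dlx2, which directs the production of inhibitory neurons there, lay in these 4 at 15, 7, 6 and 5 UMI and was 0 in the other 3. Dlx1, its neighbour and partner, had 12, 4, 4 and 1 UMI in the same barcodes. In the E16.5 reference Dlx1 and Dlx2 lay in 0.0548 and 0.137% of barcodes. Dlx5 and Sp9, of the same region, lay in 3 of these 4 each. Dlx1, Dlx2, Dlx5 and Sp9 were chosen after their values were seen. No member at E9.5 or E12.5 held 2 or more of these 4 genes. Nkx2-1, a ventral forebrain gene of the region lists, did not follow the group, with 3 UMI in 1 of the 4 barcodes and 2 UMI in the deepest barcode of the library, which lacks Dlx2.

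The same 4 barcodes held neuronal and mitotic genes together. Tubb3 lay in these 4 and no other member at E16.5, at 17, 11, 5 and 2 UMI, and all 4 also held Top2a. Elavl4, a neuronal RNA-binding protein, lay in the same 4, and Elavl3 in 5 members. Fabp7 reached at most 4 UMI in the 4, against up to 138 in the other 3. Sox11, a factor of newborn neurons, lay in 7 of 7 members and was 7.34-fold higher than at E12.5 (5.10 to 10.7), with 34, 28 and 24 UMI in 3 of the 4 Dlx2 barcodes. Sox4, its relative, was 4.55-fold higher and Pantr1, a noncoding RNA of the neural lineage, 4.62-fold.

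The other 3 members at E16.5 held 11, 7 and 2 of 15 gliogenic genes, with 101, 25 and 16 UMI. The 4 Dlx2 barcodes held 3 to 5 of them with 3 to 25 UMI, so the groups overlapped, and 1 of the 4 had 9 UMI of Nfib and 13 of Nfix. The deepest barcode of the library, of 7285 UMI, held 138 UMI of Fabp7, 34 of Mt3, a metallothionein of astrocytes, 36 of Apoe, a lipid carrier, and 77 of Cst3, and 15 of Hes5. It also held 6 UMI of Olig1 and 1 of Olig2, factors of the oligodendrocyte lineage. A further barcode had 5 UMI of Olig1 and 3 of Olig2, 18 of Fabp7 and 12 of Nfia. In the last, 3 UMI of Pax6, 4 of Fabp7 and 11 of Nfia were seen. Hes5, Pax6 and Olig2 were not confined to these 3. The highest counts of Hes5, 16 UMI, and of Pax6, 6 UMI, lay in a Dlx2 barcode, and Olig2 lay in 4 of the 7 members. The gliogenic list of 15 genes summed to 279, 951 and 4519 CPM over the ages, and the reference to 1014, 1701 and 3112. At E16.5, 101 of the 180 UMI of this list came from the deepest barcode.

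Neuronal genes were also higher in the later members. The list of 10 neuron genes summed to 98.7 CPM at E9.5, 794 at E12.5 and 1858 at E16.5, against 316, 173 and 117 in the reference. The 12 neurogenic factors summed to 146, 356 and 979 CPM, against 71.4, 191 and 554. At E12.5, 65 of the 96 UMI of the neuron list came from 1 barcode, the one with 40 UMI of Tubb3. Without it the level of the neuron list was 275 CPM. The step from E9.5 to E12.5 was then 2.78-fold (1.57 to 5.00) in place of 8.05-fold, and that from E12.5 to E16.5 6.76-fold (4.39 to 10.6). With all members the step in neuron genes from E12.5 to E16.5 was 2.34-fold, but 1.16-fold (0.832 to 1.62) without the E12.5 barcodes of at least 20000 UMI. At least 3 neuron genes lay in 1 of 34, 3 of 12 and 4 of 7 members.

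Genes lower at E16.5 included those carried by single E12.5 barcodes. Msx1 had 0 UMI against 109, at least 12-fold lower, and Acta2, of smooth muscle, 0 against 57, at least 6.26-fold lower. Meg3, a noncoding RNA, was 9.67-fold lower with 3 UMI against 88, and at E12.5 38.6% of its UMI lay in 1 barcode. Slit2 was 10.5-fold lower, Id2, an inhibitor of differentiation, 8.24-fold, and Igfbp2 4.14-fold. At E12.5, 1 barcode held 57.8% of the UMI of Slit2, 1 held 58% of Id2 and 1 held 55.4% of Igfbp2. Their mean CPM per barcode was 237, 281 and 1087 at E12.5 and 42.0, 49.8 and 452 at E16.5.

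Genes of the Notch pathway were seen at low counts. Of the ligands, Dll1 lay in 1, 2 and 1 members and Dll3 in 3 members at E16.5, against 0.110% of that reference. The 7 receptors and their modifiers lay in 17 of 34, 9 of 12 and 6 of 7 members, at 146, 223 and 628 CPM against 186, 373 and 372 in the reference, so at E16.5 the list was higher in the members, with 25 UMI. Of the receptors, Notch1 lay in 6 of 34, 5 of 12 and 3 of 7 members, and in 37.2, 49.3 and 53.9% of the reference, which also uses it. The 7 targets summed to 622 CPM at E9.5, 1696 at E12.5 and 1556 at E16.5, against 670, 1422 and 2979 in the reference. Hes5 is in this list and also helped choose the members. The 6 targets without it summed to 481, 1514 and 527 CPM, against 669, 1418 and 2975 in the reference. At E12.5, 76 of the 205 UMI of the 7 targets lay in the deepest barcode, so the level there leans on that barcode. Hes1 lay in 9, 7 and 3 members but in 17.3, 51.7 and 94.8% of the reference. Hes5 had 22 UMI at E12.5, 11 of them in 1 barcode, and 41 at E16.5, with 16 and 15 in 2 barcodes. Since it helped choose the members, its levels are no finding on age.

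Among the 19 listed signals that act on vessels, midkine had the highest level at E9.5 and E12.5. Mdk, a heparin-binding growth factor, lay in 34 of 34 members at E9.5 with 265 UMI, in 12 of 12 at E12.5 with 94 and in 4 of 7 at E16.5 with 15. Its level was 1137, 778 and 377 CPM, against 438, 154 and 21.8 in the reference, so it was higher in the members at each age and lower with age in both. Ptn, its relative pleiotrophin, lay in 24, 8 and 2 members, at 292, 554 and 954 CPM, against 17.3, 21.4 and 119 in the reference. At E16.5, 28 of its 38 UMI came from the deepest barcode.

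The signals best known for brain vessels had few UMI. Vegfa, the main growth factor of vessels, lay in 1 of 34, 2 of 12 and 0 of 7 members, with 1, 2 and 0 UMI. Wnt7a and Wnt7b, which induce barrier properties in brain endothelium, lay in 0 and 1 members at E9.5, 2 and 4 at E12.5 and 0 and 1 at E16.5. At E12.5 Wnt7b had 8 UMI, 66.2 CPM, against 0.236 CPM and 0.182% of barcodes in the reference, so it was above the reference despite its low count. For a gene at 0 of 7 members the exact interval reaches 41.0% of barcodes with a UMI, and a cell can express a gene without a UMI, so absence was not detectable here. Hypoxia and glycolysis genes summed to 2751, 2300 and 1205 CPM, against 3033, 2673 and 3830 in the reference. Ldha, a glycolytic enzyme of this list, lay in every member at each age.

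Clustering of the 53 members gave 3 clusters that separated E9.5 from the later libraries but not E12.5 from E16.5. A cluster of 21 and a cluster of 13 came from E9.5 alone, with median depths of 3687 and 7478 UMI, and a cluster of 19 held all 12 members of E12.5 and all 7 of E16.5. The split within E9.5 thus moved with depth, and the third cluster with the later libraries. The genes that marked the third cluster most were Igfbpl1, Nfib and Nfia, by mean CPM over its barcodes. No cluster was named, and no test was made since the same genes formed the clusters.

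Open chromatin at the same genes was read from bulk ATAC-seq of E12 embryos, a measure the rule did not use. Nuclei of brain, heart and trunk were taken from embryos collected at E12.5 after tamoxifen had switched on a GFP reporter in vessels, either as endothelial nuclei (3 brain, 4 heart and 4 trunk libraries) or as whole-tissue input (1 library each). A gene counted as open when a deposited peak lay within 500 bp of a start. All 6 marker genes with an annotated start (the rule genes apart from Sox3) were open in 3 of 3 brain endothelial libraries and in the brain input. In heart endothelial libraries 5, 4, 1 and 5 of the 6 were open, and in trunk 4, 3, 5 and 6. The heart input had 6 of 6 and the trunk input 5 of 6, so the heart input and 1 trunk endothelial library reached the brain's count. With a window of 5000 bp the counts were 6, 6, 3 and 6 in heart endothelial libraries, 5, 5, 5 and 6 in trunk and 6 in the brain libraries and every input, so the difference between organs was smaller. Over 17492 protein-coding genes the open share was 65.7 to 66.2% in brain endothelial libraries, 55.2 to 66.4% in heart and 63.2 to 66.6% in trunk. The third heart library had the fewest tags, 10.1 M (mega), and the fewest peaks, 39096. The read-processing steps named in the files differ by organ, so organ and processing cannot be told apart.

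**Figure D4:**
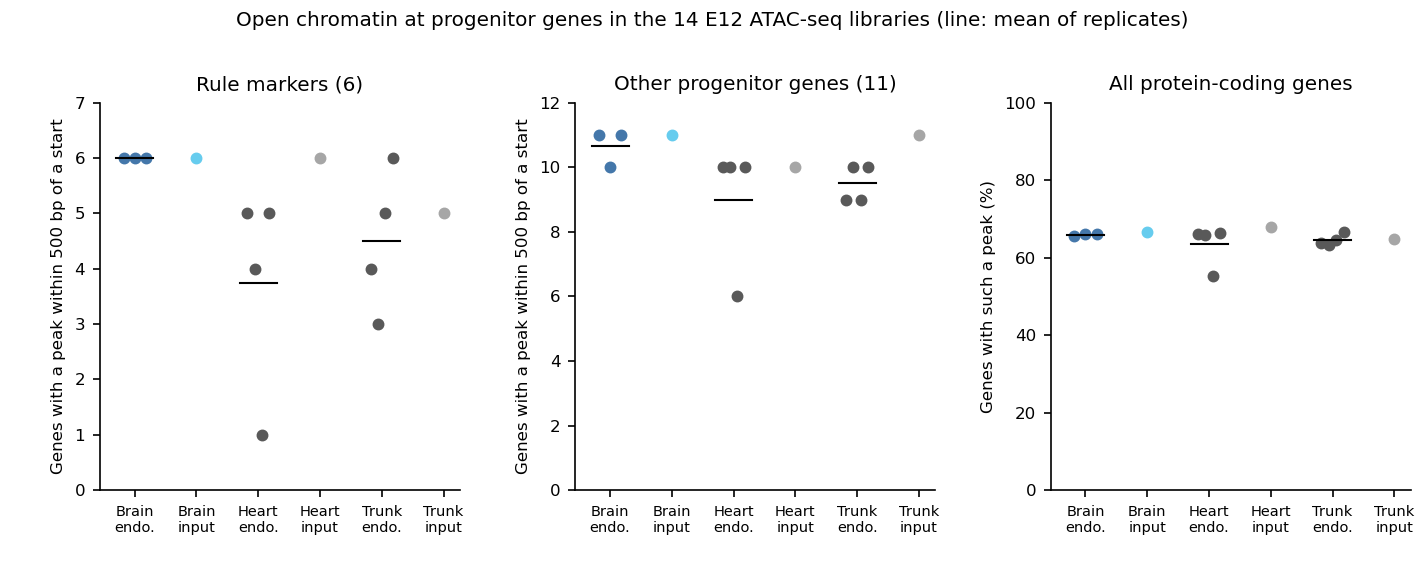
Number of marker genes (of 6) and of other progenitor genes (of 11) with a peak within 500 bp of a start, and the share of all protein-coding genes with one, in each of the 14 E12 ATAC-seq libraries (points; lines are means of replicates). All 3 brain endothelial libraries, the brain and heart inputs and 1 trunk endothelial library have 6 of 6 marker genes open, the trunk input has 5, and heart endothelial libraries have 1 to 5.

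Single genes differed more than the lists. A peak at the Hes5 start, over the promoter printed above, was called in 3 of 3 brain endothelial libraries, 1 of 4 from heart and 3 of 4 from trunk, and in the brain and trunk inputs. The heart input's peak lay downstream of the start, outside the printed sequence. The authors' pileup at the Hes5 promoter was 112 in the brain input, against 55.7, 37.4 and 38.1 in the brain endothelial libraries, although pileup is not scaled between libraries and those held 42.5, 31.8, 42.3 and 39.0 M tags. The −log10 q of that peak was 29.2 in the brain input and 4.65 to 11.8 in the brain endothelial libraries. Pax6 was open in 3 of 3 brain endothelial libraries, 1 of 4 from heart and 1 of 4 from trunk, and in the brain and heart inputs. At its 2 starts the −log10 q was 1.25 to 3.05 in brain endothelial libraries and 7.48 and 7.58 in the brain input. The heart and trunk endothelial peaks had 1.35 to 2.64, so all these endothelial calls were weak. Rfx4 was open in 2 of 3 brain endothelial libraries and in the brain and trunk inputs, and in none of the 8 heart and trunk endothelial libraries. Of 11 other progenitor genes, 10.7 ± 0.577 (SD, n = 3) were open in brain endothelial libraries, 6 to 10 in heart and 9 to 10 in trunk, and 11, 10 and 11 in the brain, heart and trunk inputs.

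Because each bulk list sums over the nuclei of a preparation, a peak at a progenitor gene does not show which nuclei carried it, and fewer such nuclei and a less open site per nucleus cannot be told apart. Of 9 endothelial genes with a start, all 9 were open in each of the 11 endothelial libraries and in the heart input, 7 in the trunk input and 6 in the brain input.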

How the data were processed

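The deposited single-cell matrices hold UMI counts per gene and barcode, made by the authors with Cell Ranger on mm10, per the submitters' processing notes; the file headers name version 4.0.0 for E9.5, P8 and adult and none for E12.5 and E16.5. The authors' ATAC-seq peak lists give a pileup signal and −log10 q per peak, called per library with MACS2 2.1.2, per the file headers. Groups were taken from the sample titles. The members, gene lists and tests were chosen with earlier results of these data known.

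Counts were summed over a library's members and divided by their total (CPM). Intervals are 95%: exact binomial for shares, exact Poisson for sums, exact conditional binomial for ratios (Python 3.11.15, scipy 1.17.1). A gene was called at a 2-fold ratio with at least 50 UMI over both sums, or at least 10 expected UMI against the reference; a sum of 0 was set to 3 UMI over the group, which gives a bound. On simulated counts, 99% of genes changed 4-fold were called in either step in age (1064 and 525 genes tested), with 1.15 and 1.22% of unchanged genes called; the simulation covers counting error only, not the spread between barcodes or libraries, so it is no background for the real counts. Clusters used leidenalg 0.10.2. Doublets, scored from simulated pairs with scikit-learn 1.9.0, were left in. The number marked was fixed in advance by an assumed rate of 0.8% per 1000 barcodes. It gave 784, 544 and 126 barcodes, or 7.92, 6.60 and 3.18% of those scored, 1 of them a member. This does not show that the members are single cells.

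Named genes were those of the lists and, for each step in age, the 10 with the largest ratio in each direction whose interval excludes 1 and whose CPM, where higher, was at least 2-fold that of the reference, without mitochondrial, globin, sex-linked and rule genes; for clusters, the 8 with the largest ratio. Alternatives covered the limits of the rule, scaling, UMI minimum, thinning, doublets, deep barcodes, members with genes of other tissues and, for peaks, window, threshold and each brain replicate. The bulk RNA tables list transcripts without gene names and were not used here. Results on 4 genes are not reported here.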

Additional observations from a re-analysis of the deposited data

Results flagged for a closer look

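In the 4 heart endothelial ATAC-seq libraries of E12, the third library lay apart from the others. Peaks lay within 500 bp of a start in 55.2% of all protein-coding genes there, while the nearest other heart library had 65.9%. That gap was 0.959 of the group's range, above the 95% limit of Dixon's test for 4 samples. In the same library 6 of 11 other progenitor genes were open, against 10 in the nearest library. It also had the fewest tags, 10.1 M (mega), and its part in both values was not tested. For a single measure that limit is passed by chance in about 1 in 20 groups. Several measures of the heart and trunk groups were put to it, so a chance pass is more likely than that. For the progenitor genes the other heart libraries had equal counts, so that rate does not apply to them.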

How the results depend on the processing

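No paired analysis was possible because each age is 1 library and the ATAC-seq result is a count of open genes with no test between groups. Of the values recomputed under other settings, 59 stayed within the spread or 1.5 times and 46 moved. Ratios of list sums were recomputed for 4 lists only (early neuroepithelial, G2 and mitosis, neuron and gliogenic), and none of these changed direction. The other lists, S phase among them, were not recomputed in this way. Which direction held more genes differed from the reported counts under 3 of 10 settings for E12.5 against E9.5 and under 5 of 10 for E16.5 against E12.5, among them 160 higher and 141 lower with the mean of CPM per barcode in the first, and 73 and 49 with median-ratio scaling and 37 and 35 without members with genes of other tissues in the second. The settings that leave out members with genes of other tissues (at least 3 of epithelium, crest or mesenchyme), of at least 20000 UMI or with the most neuron UMI, and the ratios of list sums, were chosen after seeing the data. The 34 members of E9.5 became 9 with a mitochondrial limit of 5%, 13 with at least 4 of 7 genes, 6 when 7 more genes of other cells had to be at 0, and 9 when thinned to 2000 UMI. The 12 of E12.5 became 3 with the 7 more genes, 4 thinned and 7 without those with genes of other tissues, and the 7 of E16.5 became 4 with at least 4 of 7 genes, 0 with the 7 more genes and 3 thinned. Genes higher and lower at E12.5 against E9.5, 139 and 151, were 505 and 402 with at least 20 UMI, 20 and 44 with at least 200, 63 and 43 when the interval had to pass 2-fold, 76 and 77 with at least 4 of 7 genes, and 25 and 45 thinned. At E16.5 against E12.5, 53 and 71 became 177 and 237, 7 and 6, 26 and 16, 22 and 41, and 8 and 11 under the same settings, 31 and 21 without barcodes of at least 20000 UMI, and 35 lower without members with genes of other tissues. Of these counts, fewer members or genes enter under the stricter settings by construction. Without the members with genes of other tissues, and without barcodes of at least 20000 UMI, the E12.5 to E9.5 ratio of G2 and mitosis genes moved from 0.645 to 0.418 and 0.481, and that of neuron genes from 8.05 to 13.8 and 16.6; the E16.5 to E12.5 ratios moved from 4.43 to 6.74 and 6.14, and from 2.34 to 1.48 and 1.16. Without the E12.5 barcode with the most neuron UMI, the neuron ratios were 2.78 and 6.76. The early neuroepithelial ratio of E12.5 to E9.5 moved from 0.260 to 0.391 without the deep barcodes. With peaks of −log10 q of at least 5, a mean of 4.33 of 6 marker genes and 9.33 of 11 other progenitor genes were open in brain endothelial libraries, against 6 and 10.7; leaving out 1 brain library gave 6 to 6 and 10.5 to 11. The cause of these moves was not tested. Small numbers of members limit every value.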

Other observations

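The rule also found 7 barcodes among 5277 in the P8 cortex library and 9 among 3671 in the adult one, which belong to no embryonic group. Slc1a3 lay in 6 of 7 and 9 of 9 of them, and Ptprz1, a phosphatase of radial glia and astrocytes, in 7 of 7 and 9 of 9. At least 3 of the 15 gliogenic genes lay in 7 of 7 and 9 of 9, and that list summed to 37561 and 27130 CPM. It stood at 4519 CPM in the E16.5 members. The 10 G2 and mitosis genes had 1 UMI in each set. Igf2bp1 and Lin28b had no UMI in either set. Zic1, a dorsal neural gene, lay in 1 of 7 and 0 of 9.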
